A study of Rattus norvegicus with 9 samples.

Results

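Superoxide and hydrogen peroxide are removed in mammalian cells by a small set of enzymes. The 10 genes examined here in rat femur were the superoxide dismutases Sod1, Sod2 and Sod3, the catalase Cat, the glutathione peroxidases Gpx1, Gpx3 and Gpx4, the glutathione reductase Gsr, and the peroxiredoxins Prdx1 and Prdx6. They were taken by symbol from the deposited count table, where each matched 1 of 31125 gene rows, and all 10 passed the filter on low counts. RNA came from whole femurs of male rats at day 7, with 3 libraries in each of 3 groups. GMTT femurs had an injury of the distal femoral growth plate and a hydrogel, named in the series title as GelMa (methacrylated gelatin) with TPGS, a form of vitamin E, and with tea polyphenols. GPI femurs had that injury and no hydrogel is named for them, and Sham femurs came from sham surgery. The labels give no strain or age, hold no group with a plain gel, and do not state whether animals were pooled. The p-values reflect variation among the libraries at hand, part of which may be technical.

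Superoxide leaks mainly from the mitochondrial respiratory chain and is made on purpose by the NADPH oxidase of phagocytes. Dismutases turn it into hydrogen peroxide: Sod1 is the copper and zinc enzyme of the cytosol, Sod2 the manganese enzyme of the mitochondrial matrix, and Sod3 a secreted copper and zinc enzyme that binds the extracellular matrix. Hydrogen peroxide is then broken down by catalase in peroxisomes, by glutathione peroxidases and by peroxiredoxins, and glutathione reductase restores reduced glutathione with NADPH. Red cells hold much catalase, glutathione peroxidase 1 and peroxiredoxin 2, and muscle is rich in mitochondria.

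Libraries held 15927429 to 19715997 counts, and of these the 10 enzyme genes took 0.198% ± 0.00342 in GMTT, 0.112% ± 0.00249 in GPI and 0.234% ± 0.00995 in Sham (SD, n = 3). Marker genes of several tissues differed widely between groups. The 12 skeletal muscle genes measured took 2.40% ± 0.0896 in GMTT, 12.9% ± 0.159 in GPI and 0.244% ± 0.00625 in Sham. The 14 erythroid genes took 0.884% ± 0.00708 in GMTT, 0.0437% ± 0.000915 in GPI and 1.62% ± 0.0110 in Sham, and in GPI most of their reads were of Sptb (23676 reads, against 684 of Alas2), a spectrin gene that muscle also expresses. The 12 genes of neutrophils and their precursors took 1.11% ± 0.0372 in GMTT, 0.000465% ± 3.38e-05 in GPI and 0.948% ± 0.0406 in Sham. Genes that define cartilage, the tissue of the growth plate, were scarce in all groups: 11 of them took 0.0401% ± 0.00135 in GMTT, 0.0212% ± 5.54e-05 in GPI and 0.0266% ± 0.00083 in Sham, and Matn1 had no count in GPI. In bulk RNA, fewer cells of a type and less RNA per cell cannot be told apart, and the part of tissue makeup in the differences below was not tested.

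Levels are given as normalised CPM, counts scaled to library size and by TMM between libraries, and differences as log2 fold changes with their standard error (SE) from edgeR's quasi-likelihood test. A gene was called at an adjusted p below 0.05 over the 15936 genes tested. Muscle and mitochondrially encoded transcripts took a large part of the GPI libraries, and the TMM factor averaged 1.29 in GMTT, 0.602 in GPI and 1.28 in Sham. On library sizes only, without this factor, the median log2 fold change of all genes was -1.28 in GPI against Sham in place of -0.19, and 1.22 in GMTT against GPI in place of 0.12. In GMTT against Sham it was 0.0065 in place of -0.0031. Directions below are on the TMM scale. For a member whose direction library sizes only turned, the turned value is given. For a list whose counts changed in a contrast with GPI, the recount or the genes that turned are given.

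GPI against Sham asks how these enzymes differed after injury. The dismutases moved in both directions: Sod2 was 8.33-fold and Sod3 24.7-fold higher in GPI, while Sod1 was 1.37-fold lower. Among the enzymes of peroxide removal, Gpx1 was 7.99-fold and Gsr 2.30-fold lower. In all 5 of the 10 genes were called higher and 4 lower, beside 88.2% of all genes called (40.1% higher and 48.1% lower). Library sizes only gave 2 higher and 7 lower, beside 3521 higher and 11210 lower of the 15936 genes tested. Libraries of both groups did not overlap for 10 of the 10 genes, beside 88.3% of all genes. So many genes were called that neither count sets the enzymes apart. Their median log2 fold change was 0.081, against -0.19 for all genes.

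GMTT against GPI asks how injured femurs with the hydrogel differed from those without. Gpx1 was 5.75-fold and Gsr 2.40-fold higher in GMTT, while Sod2 was 4.09-fold, Sod3 5.10-fold and Gpx4 2.47-fold lower. Of the 10 genes, 3 were called higher and 6 lower, beside 85.9% of all genes called (45.7% higher and 40.2% lower). Library sizes only gave 7 higher and 3 lower, beside 11503 higher and 3016 lower of the 15936 genes tested. The groups did not overlap for 9 of the 10, beside 86.2% of all genes. The median was -0.37, against 0.12 for all genes. This contrast shares its GPI libraries with the first, so each enzyme's values are given side by side.

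GMTT against Sham asks what differed between injured femurs with hydrogel and uninjured ones. Sod3 was 4.83-fold, Sod2 2.03-fold and Prdx6 1.20-fold higher in GMTT, and Cat, Gpx1, Sod1, Gpx4 and Gpx3 were lower by 1.49-fold or less. In all 3 were called higher and 5 lower, beside 57.8% of all genes called (29.5% higher and 28.3% lower). Library sizes only gave the same 3 and 5, beside 4802 higher and 4370 lower of the 15936 genes tested. The groups did not overlap for 8 of the 10, beside 61.7% of all genes. The median was -0.16, against -0.0031 for all genes. Counts of list genes given below are to be read beside these same shares of all genes called in the 3 contrasts.

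**Figure D1:**
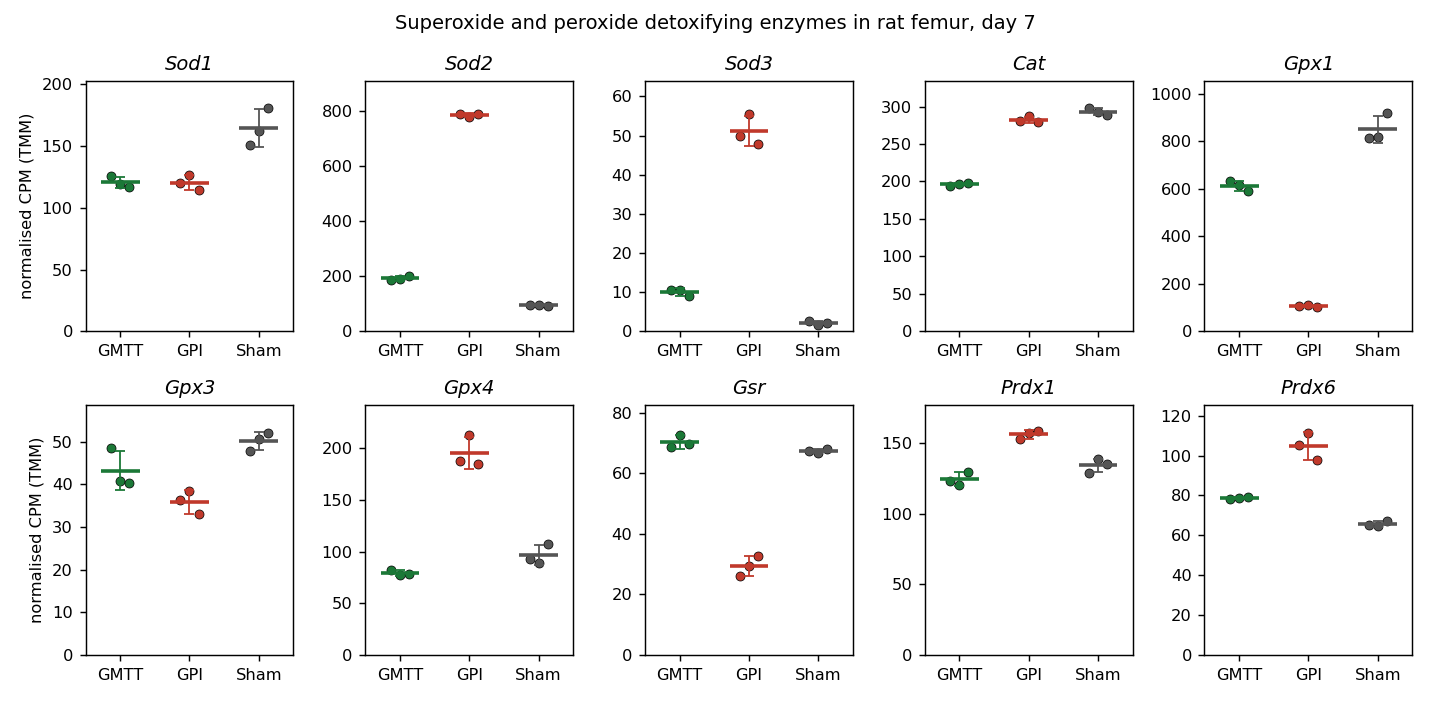
Normalised CPM (TMM-scaled, linear axes from 0) of the 10 enzyme genes in GMTT, GPI and Sham femurs. Points are libraries, horizontal lines are means and whiskers SD (n = 3); on this scale Sod2 and Sod3 stand highest in GPI, Gpx1 and Gsr stand lowest in GPI, and Sod1 stands highest in Sham.

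Sod2 (ENSRNOG00000019048, chromosome 1, 47636528 to 47645189, minus strand on build mRatBN7.2, protein-coding) had 186, 189 and 202 normalised CPM in GMTT, 789, 779 and 791 in GPI, and 94.3, 95.6 and 93.4 in Sham. No group overlapped another, and GMTT lay between GPI and Sham. The log2 fold change was 3.06 (SE 0.048, adjusted p = 1.17e-32) in GPI against Sham, -2.03 (SE 0.045, adjusted p = 2.98e-28) in GMTT against GPI and 1.02 (SE 0.046, adjusted p = 9.68e-19) in GMTT against Sham. In GPI against Sham, 90.6% of all tested genes had a lower log2 fold change than Sod2, a rank that does not depend on the scaling between libraries. With library sizes only the contrasts with GPI were 1.96 and -0.93.

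Genes of oxidative phosphorylation moved in the direction of Sod2. Other genes of mitochondria did not all do so, among them Slc25a37 in GPI against Sham and Prdx3 in GMTT against Sham, both given below. All 13 tested nuclear genes of oxidative phosphorylation rose in GPI against Sham, with a median log2 fold change of 3.09, as did all 13 mitochondrially encoded genes, with a median of 3.91. As a percentage of the summed FPKM of 14 nuclear oxidative phosphorylation genes within a library, Sod2 stood at 2.48% ± 0.141 in GMTT, 1.76% ± 0.0606 in GPI and 1.55% ± 0.0700 in Sham (SD, n = 3). By this measure GMTT was highest and Sham lowest, without overlap, and GPI and Sham lay closer together than in normalised CPM.

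The sequences around the annotated start sites of Sod2, Gpx1 and Prdx1 are shown because, among members with a window, Sod2 and Gpx1 had the largest differences in opposite directions in GPI against Sham, and because Prdx1 shares with Sod2 a match to the antioxidant response core. They are RefSeq sequences on build GRCr8, from 250 bases before to 50 after the start, 5′ to 3′ on the gene's strand. Capitals mark matches on either strand to the antioxidant response core TGACNNNGC, the motif bound by the regulator NRF2, and to the GC box GGGCGG.
Sod2, chr1:50050119-50050418, minus strand: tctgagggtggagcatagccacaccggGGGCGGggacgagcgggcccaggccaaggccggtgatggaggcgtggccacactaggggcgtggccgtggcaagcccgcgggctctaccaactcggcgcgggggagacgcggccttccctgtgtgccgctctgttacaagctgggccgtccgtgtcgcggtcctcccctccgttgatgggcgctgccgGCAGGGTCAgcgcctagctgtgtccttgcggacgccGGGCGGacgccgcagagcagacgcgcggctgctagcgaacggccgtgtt
Gpx1, chr8:117905212-117905511, plus strand: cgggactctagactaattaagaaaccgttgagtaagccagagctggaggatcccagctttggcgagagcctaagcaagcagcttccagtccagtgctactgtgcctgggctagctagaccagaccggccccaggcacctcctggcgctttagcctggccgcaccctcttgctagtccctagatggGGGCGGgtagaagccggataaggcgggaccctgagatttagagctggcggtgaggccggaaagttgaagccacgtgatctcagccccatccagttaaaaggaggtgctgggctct
Prdx1, chr5:135383656-135383955, plus strand: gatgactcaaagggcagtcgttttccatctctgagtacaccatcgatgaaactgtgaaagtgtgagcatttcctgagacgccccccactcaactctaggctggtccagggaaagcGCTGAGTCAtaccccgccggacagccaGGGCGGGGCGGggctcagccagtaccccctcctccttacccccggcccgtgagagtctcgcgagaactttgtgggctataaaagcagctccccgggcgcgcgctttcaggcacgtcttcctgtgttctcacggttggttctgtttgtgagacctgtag
Windows were given for 7 of the 10 members, and Sod3, Gsr and Prdx6 are named only. The antioxidant core was found for 2 of the 7, at positions 216 to 224 of the Sod2 window and 116 to 124 of the Prdx1 window, both on the opposite strand, and in 12.1% of all 33465 windows of 300 bases. The GC box was found for 6 of the 7, all but Cat, and in 33.1% of all windows. Members were counted by gene, over 9 windows, and the background by window, so the shares are not like for like. GC content was 54.7% to 72.0% in the member windows, against a median of 51.7% over all windows. A match describes letters and not binding.

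Sod3 (ENSRNOG00000003869, chromosome 14, 58609958 to 58615990, minus strand, protein-coding) had 10.4, 10.6 and 8.99 normalised CPM in GMTT, 50.01, 55.4 and 47.9 in GPI, and 2.49, 1.56 and 2.21 in Sham. No group overlapped another, again with GMTT between the others. Sham rested on 135 reads over 3 libraries. The log2 fold change was 4.62 (SE 0.12, adjusted p = 7.46e-27) in GPI against Sham, -2.35 (SE 0.089, adjusted p = 8.51e-22) in GMTT against GPI and 2.27 (SE 0.14, adjusted p = 2.72e-15) in GMTT against Sham, where 96.6% of tested genes had a lower one. With library sizes only the contrasts with GPI were 3.53 and -1.25. Of 9 fibroblast and connective tissue genes, 8 rose and 1 fell in GPI against Sham, 4 rose and 5 fell in GMTT against GPI, and 8 rose in GMTT against Sham; library sizes only gave 6 and 3, 6 and 2, and again 8. Of 9 adipocyte genes, 9 rose in the first of these contrasts (with library sizes only 8 rose and 1 fell), 8 fell in the second (with library sizes only 4 rose and 4 fell) and 8 rose in the third.

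Sod1 (ENSRNOG00000002115, chromosome 11, 29456558 to 29462249, plus strand, protein-coding) had 126, 119.6 and 117 normalised CPM in GMTT, 119.9, 127 and 115 in GPI, and 151, 162 and 181 in Sham. Sham lay above both injured groups, which overlapped each other. Relative to Sham, GPI was lower with a log2 fold change of -0.45 (SE 0.058, adjusted p = 1.72e-08) and GMTT with -0.45 (SE 0.056, adjusted p = 4.06e-08). In GMTT against GPI the value was 0.0044 (SE 0.059, adjusted p = 0.946), which became 1.11 and was called with library sizes only. Ccs, the chaperone that hands copper to Sod1, averaged 27.8 ± 1.57 normalised CPM in GMTT, 15.8 ± 1.84 in GPI and 31.3 ± 2.59 in Sham (SD, n = 3). It was lower in GPI than in Sham, with a log2 fold change of -0.99 (SE 0.089), and higher in GMTT than in GPI, with 0.82 (SE 0.089). In GMTT against Sham it was -0.17 (SE 0.073, adjusted p = 0.0473), a call lost in 16 alternatives, with DESeq2 (adjusted p = 0.232) among them.

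The shares of the dismutases within a library do not depend on the scaling between libraries. Of the summed FPKM (reads per kilobase of gene length, scaled) of Sod1, Sod2 and Sod3, Sod2 held 41.0% ± 1.94 in GMTT, 68.9% ± 1.39 in GPI and 21.1% ± 1.59 in Sham (SD, n = 3). Sod1 held 54.9% ± 1.65 in GMTT, 22.5% ± 0.855 in GPI and 78.0% ± 1.69 in Sham. Sod3 held 4.10% ± 0.372 in GMTT, 8.60% ± 0.546 in GPI and 0.896% ± 0.233 in Sham. The leading dismutase transcript per length was thus Sod1 in GMTT and Sham and Sod2 in GPI. In GMTT this order depended on gene length: as shares of counts, Sod2 led there with 59.5% against 37.4% for Sod1. Libraries of different groups did not overlap in any of the 3 shares. Each of the 9 differences had an exact permutation p of 0.1 (2-sided), the smallest that 3 libraries against 3 allow, and 0.105 after adjustment over 21 such tests.

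**Figure D2:**
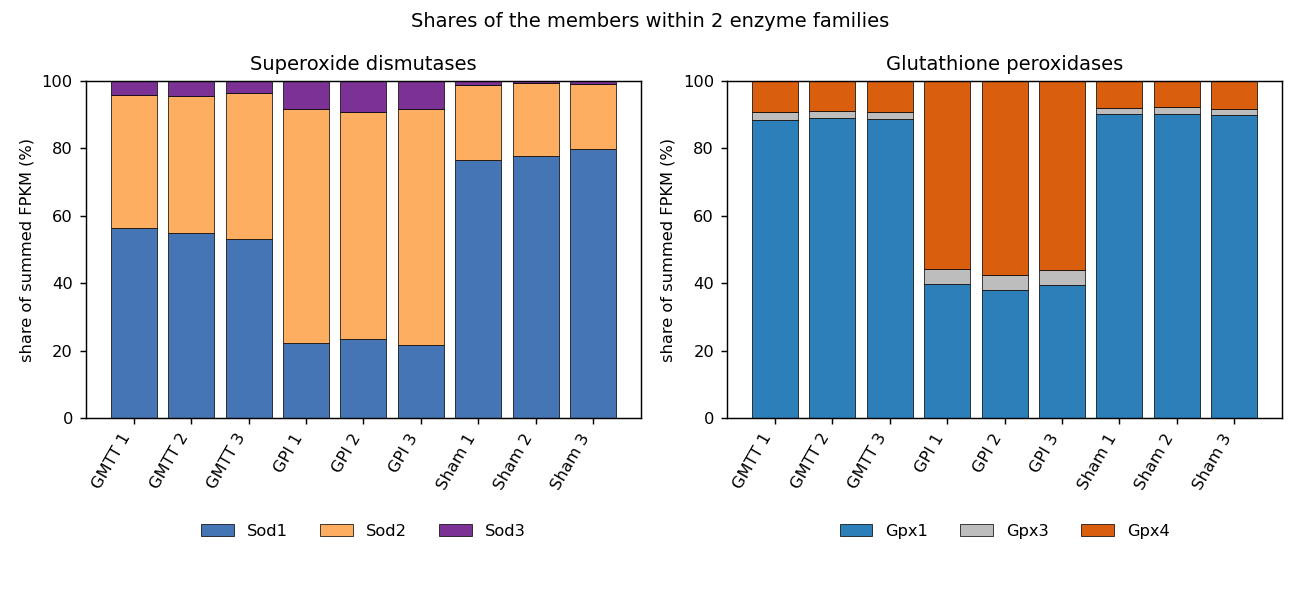
Share of summed FPKM (%) held by each superoxide dismutase (left) and by each glutathione peroxidase among the members (right) in every GMTT, GPI and Sham library, as stacked bars. Sod2 holds 68.9% of the dismutase FPKM on average in GPI against 21.1% in Sham, and Gpx4 holds 56.6% of the peroxidase FPKM in GPI against 8.09% in Sham.

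Cat (ENSRNOG00000008364, chromosome 3, 89842399 to 89874478, minus strand, protein-coding) had 194, 197 and 198 normalised CPM in GMTT, 280.4, 287 and 279 in GPI, and 299, 292 and 289 in Sham. The GMTT libraries were lowest, and GPI lay below Sham with no overlap. In GPI against Sham the log2 fold change of -0.056 (SE 0.044, adjusted p = 0.226) missed the threshold, was 0.0054 with median-of-ratios scaling, and was -1.15 and called with library sizes only. GMTT was lower than Sham, with a log2 fold change of -0.58 (SE 0.043, adjusted p = 4.31e-13), a value under which lay 8.50% of tested genes. GMTT was also lower than GPI, with -0.52 (SE 0.044, adjusted p = 1.26e-12), which turned to 0.58 with library sizes only. All 14 erythroid genes fell in GMTT against Sham, with a median of -0.90, and all fell in GPI against Sham, with a median of -9.18.

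Gpx1 (ENSRNOG00000048812, chromosome 8, 109026905 to 109028024, plus strand, protein-coding), a peroxidase of cytosol and mitochondria, had 631, 615 and 591 normalised CPM in GMTT, 105, 111 and 103 in GPI, and 815, 818 and 917 in Sham. GPI was far below both other groups, and GMTT stayed below Sham without overlap. Its log2 fold change was -3.00 (SE 0.053, adjusted p = 4.26e-31) in GPI against Sham, 2.52 (SE 0.053, adjusted p = 5.25e-29) in GMTT against GPI and -0.47 (SE 0.047, adjusted p = 3.44e-10) in GMTT against Sham. With library sizes only the contrasts with GPI were -4.09 and 3.63. Blood-lineage genes also fell in GPI against Sham, with medians of -9.18 over 14 erythroid, -10.07 over 11 neutrophil and -2.81 over 9 monocyte and macrophage genes, and 8 of 8 B lymphocyte genes fell as well.

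Gpx4 (ENSRNOG00000013604, chromosome 7, 9650185 to 9652982, minus strand, protein-coding), which reduces lipid peroxides in membranes and restrains ferroptosis, had 82.4, 77.3 and 77.8 normalised CPM in GMTT, 188, 213 and 185 in GPI, and 92.9, 89.3 and 108 in Sham. On this scale GPI was highest and GMTT lowest, with no overlap. GPI exceeded Sham by a log2 fold change of 1.01 (SE 0.063, adjusted p = 3.06e-15), but the value was -0.079 (adjusted p = 0.227) with library sizes only. It was -1.30 (SE 0.063, adjusted p = 9.47e-18) in GMTT against GPI, or -0.20 with library sizes only, and -0.29 (SE 0.063, adjusted p = 0.000281) in GMTT against Sham. In GPI against Sham it lay 1.21 log2 units above the median of all genes with TMM scaling and 1.20 with library sizes only.

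Gpx3 (ENSRNOG00000052564, chromosome 10, 39028570 to 39037035, plus strand), the secreted peroxidase of plasma, is typed as lncRNA in the deposited annotation. It had 48.5, 40.8 and 40.3 normalised CPM in GMTT, 36.4, 38.4 and 32.9 in GPI, and 47.8, 50.6 and 52.1 in Sham. GPI lay lowest, while GMTT overlapped Sham through its first library. Differences were -0.48 (SE 0.074, adjusted p = 4.66e-07) in GPI against Sham and 0.26 (SE 0.074, adjusted p = 0.0016) in GMTT against GPI, as log2 fold changes, and -1.57 and 1.37 with library sizes only. Between GMTT and Sham the value was -0.22 (SE 0.066, adjusted p = 0.00626), a call lost without GMTT library 2 (adjusted p = 0.051), with DESeq2 (adjusted p = 0.0587) and in all 3 limma fits on log2 FPKM (adjusted p = 0.0696 to 0.12).

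Within a library, Gpx1 held 88.8% ± 0.303 in GMTT, 39.1% ± 0.970 in GPI and 90.1% ± 0.196 in Sham of the summed FPKM of Gpx1, Gpx3 and Gpx4 (SD, n = 3). Gpx4 held 9.09% ± 0.198 in GMTT, 56.6% ± 0.997 in GPI and 8.09% ± 0.278 in Sham, so the leading peroxidase transcript per length was Gpx1 in GMTT and Sham and Gpx4 in GPI. Gpx3 held 2.08% ± 0.162 in GMTT, 4.37% ± 0.172 in GPI and 1.77% ± 0.0816 in Sham. The ratio of Gpx1 to Gpx4 FPKM was 9.78 ± 0.246 in GMTT, 0.691 ± 0.0290 in GPI and 11.1 ± 0.409 in Sham. GMTT and Sham differed by 1.30 percentage points or less in these shares, against 48.5 between GPI and Sham for Gpx4. Every exact permutation p was 0.1, the smallest possible.

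Gsr (ENSRNOG00000014915, chromosome 16, 58482505 to 58525661, minus strand, protein-coding) had 68.6, 72.8 and 69.6 normalised CPM in GMTT, 26.1, 29.4 and 32.7 in GPI, and 67.2, 66.7 and 68.2 in Sham. GPI stood far below, while GMTT and Sham lay close together. Its log2 fold change was -1.20 (SE 0.067, adjusted p = 3.32e-17) in GPI against Sham and 1.26 (SE 0.067, adjusted p = 8.62e-18) in GMTT against GPI, and -2.29 and 2.36 with library sizes only. Between GMTT and Sham it was 0.062 (SE 0.057, adjusted p = 0.356), which missed the threshold although the lowest GMTT library was just above the highest Sham library.

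Prdx1 (ENSRNOG00000017194, chromosome 5, 130147204 to 130162856, plus strand, protein-coding), a cytosolic thioredoxin-dependent peroxidase, had 123, 120.4 and 129.8 normalised CPM in GMTT, 153, 157 and 158 in GPI, and 129, 138 and 135 in Sham. GPI was highest, and GMTT overlapped Sham. Its log2 fold change of 0.22 (SE 0.050, adjusted p = 0.00016) in GPI against Sham turned to -0.88 with library sizes only, and that of -0.33 (SE 0.050, adjusted p = 4.14e-07) in GMTT against GPI turned to 0.78. Between GMTT and Sham it was -0.11 (SE 0.048, adjusted p = 0.0553), which missed the threshold and was called without Sham library 1 (adjusted p = 0.0416) or GMTT library 3 (adjusted p = 0.0211). The near copy Prdx1l1 took 11.2% of the reads of the pair in GMTT, 10.6% in GPI and 10.4% in Sham, and how reads were divided between the copies is uncertain.

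Prdx6 (ENSRNOG00000066585, chromosome 13, 73528210 to 73539355, minus strand, protein-coding), a peroxiredoxin that uses glutathione and also acts on oxidised phospholipids, had 78.3, 78.9 and 79.2 normalised CPM in GMTT, 105, 112 and 97.8 in GPI, and 65.2, 64.6 and 67.4 in Sham. The groups did not overlap, and GMTT lay between GPI and Sham. Log2 fold changes of 0.67 (SE 0.055, adjusted p = 4.8e-13) in GPI against Sham and -0.41 (SE 0.054, adjusted p = 2.41e-08) in GMTT against GPI turned to -0.42 and 0.69 with library sizes only. Between GMTT and Sham the value was 0.26 (SE 0.053, adjusted p = 9.52e-05). Prdx6 held 8.87% ± 0.283 in GMTT, 9.35% ± 0.604 in GPI and 7.00% ± 0.272 in Sham of the summed FPKM of Prdx1 and Prdx6. GMTT and GPI overlapped in this share (exact permutation p = 0.3), and both lay above Sham (p = 0.1 by the same exact test).

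**Figure D3:**
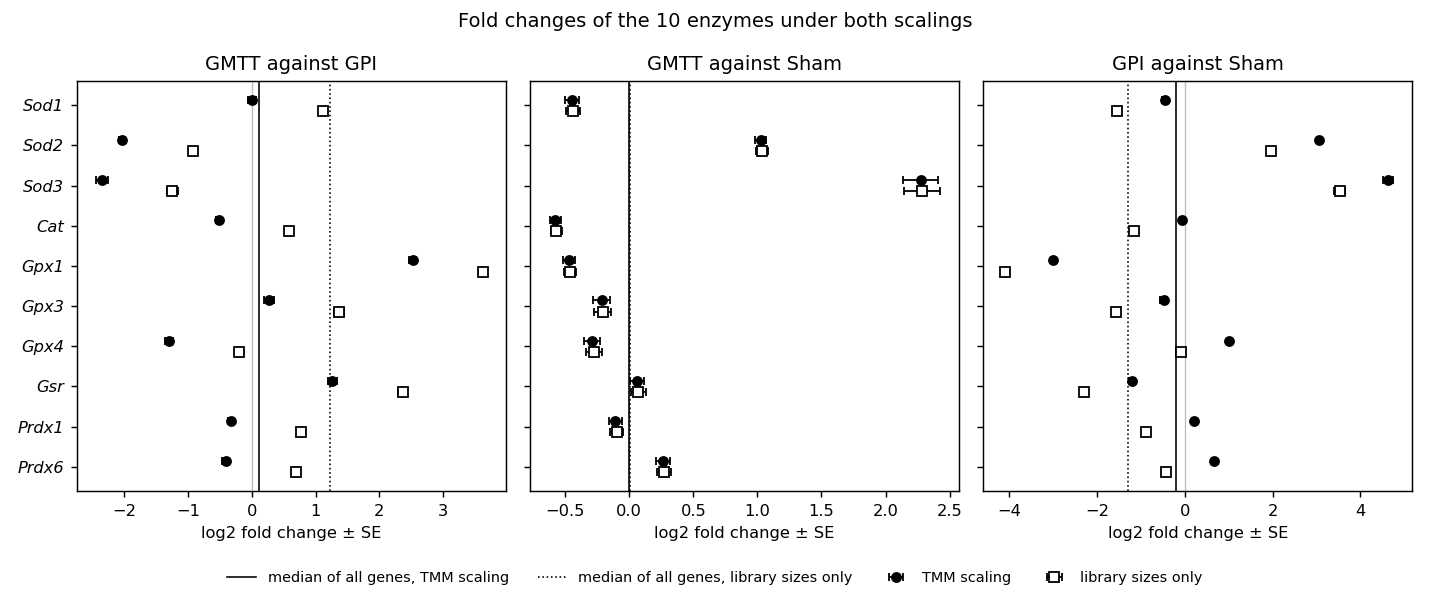
Log2 fold changes (points, with SE as bars) of the 10 enzymes in GMTT against GPI, GMTT against Sham and GPI against Sham. Filled circles are TMM scaling and open squares library sizes only, and vertical lines mark the median of all genes under each; in the contrasts with GPI the 10 enzymes shift with that median, so that Prdx1 and Prdx6 change sign in both, Gpx4 in GPI against Sham and Cat in GMTT against GPI.

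Levels of different genes were compared as FPKM, which divides by the deposited gene length, from 903 bases for Gpx1 to 6267 for Prdx6. In GMTT the highest were Gpx1 (676 ± 24.6 FPKM, SD, n = 3), Prdx1 (129 ± 4.70) and Cat (82.3 ± 0.380), followed by Gpx4 and Sod1, the only neighbours in the order whose libraries overlapped. In GPI Sod2 led (202 ± 2.59), followed by Gpx4 (170.4 ± 13.02) and Prdx1 (162 ± 3.54), which overlapped, and by Cat (118 ± 1.39) and Gpx1 (118 ± 3.95), which overlapped too. In Sham the order ran from Gpx1 (919 ± 60.3) over Prdx1 (136 ± 5.21), Cat (120.3 ± 2.07), Sod1 (88.3 ± 8.03) and Gpx4 (82.6 ± 8.06) to Sod2 (23.8 ± 0.375), and here Sod1 and Gpx4 overlapped. Sod3 came last in GMTT (4.95 ± 0.455) and Sham (1.01 ± 0.228), and Gsr came last in GPI (8.76 ± 1.02).

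The other glutathione peroxidases and peroxiredoxins also went in both directions. Prdx2, the abundant peroxiredoxin of red cells, averaged 502 ± 23.2 normalised CPM in GMTT, 167 ± 5.26 in GPI and 851 ± 36.9 in Sham (SD, n = 3). Its log2 fold change was -2.35 (SE 0.049) in GPI against Sham, 1.58 (SE 0.048) in GMTT against GPI and -0.76 (SE 0.045) in GMTT against Sham. Prdx3, the peroxiredoxin of mitochondria, averaged 148 ± 2.02 normalised CPM in GMTT, 352 ± 5.36 in GPI and 195 ± 9.25 in Sham. Its value of 0.85 (SE 0.046) in GPI against Sham turned to -0.25 with library sizes only, and it was -1.25 (SE 0.047) in GMTT against GPI and -0.40 (SE 0.046) in GMTT against Sham. Relative to the summed FPKM of the oxidative phosphorylation genes, Prdx3 stood at 4.84% ± 0.128 in GMTT, 1.99% ± 0.0591 in GPI and 8.10% ± 0.248 in Sham, and GPI was lowest by this measure.

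Of the 6 relatives tested, 3 rose and 2 fell in GPI against Sham, 3 rose and 2 fell in GMTT against GPI, and 3 rose and 3 fell in GMTT against Sham. Of all genes, 88.2%, 85.9% and 57.8% were called in these contrasts, and the counts of the lists that follow stand beside the same shares. With library sizes only 0 rose and 5 fell in the first of these and 5 rose and 1 fell in the second. Gpx2 was too low to test. Prdx4, of the endoplasmic reticulum, changed by -1.65, 1.12 and -0.53 in these contrasts. Prdx5 changed by 0.78, -0.47 and 0.31, with the contrasts with GPI turning to -0.32 and 0.64 on library sizes only. Gpx7 was 0.84 in GPI against Sham (-0.25 with library sizes only), -0.030 and not called in GMTT against GPI (1.07 and called with library sizes only), and 0.81 in GMTT against Sham. Gpx8 was -0.11 and not called in GPI against Sham (-1.21 and called with library sizes only), and rose by 0.37 in GMTT against GPI and 0.25 in GMTT against Sham, the last call being lost without Sham library 1 (adjusted p = 0.0981).

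Suppliers of glutathione and NADPH split by gene. In GPI against Sham 4 of 7 tested genes rose, Nnt (3.89), Idh2 (3.71), Me1 (3.41) and Idh1 (0.96, but -0.14 with library sizes only), of which Nnt and Idh2 make NADPH in mitochondria. The other 3 fell: Gclc (-3.36), Gclm (-2.92) and Gss (-0.32), which build glutathione. Idh2 averaged 185 ± 7.98 normalised CPM in GMTT, 1533 ± 54.5 in GPI and 117 ± 3.21 in Sham, and Gclc 79.0 ± 0.876 normalised CPM in GMTT, 18.8 ± 0.675 in GPI and 193 ± 7.69 in Sham (SD, n = 3). In GMTT against GPI, Gclc (2.08), Gclm (2.08) and Gss (0.26) rose and Nnt (-3.32), Idh2 (-3.05), Me1 (-2.39) and Idh1 (-0.37, but 0.73 with library sizes only) fell. In GMTT against Sham, Gclc (-1.29) and Gclm (-0.84) fell, Me1 (1.02), Idh2 (0.66), Idh1 (0.58) and Nnt (0.57) rose, and Gss (-0.062) was not called. Both calls of Gss were lost with DESeq2 (adjusted p = 0.077 and 0.124), and the call in GMTT against GPI in 10 alternatives in all.

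The thioredoxin, glutaredoxin and sulfiredoxin list had 8 of 14 genes higher and 5 lower in GPI against Sham, but 4 higher and 10 lower with library sizes only. Txnip, which inhibits thioredoxin, rose by 1.58 (SE 0.043), and Txnrd1, the cytosolic thioredoxin reductase, by 0.74 (SE 0.053), which was -0.35 with library sizes only. Txn2 and Txnrd3 were also among the higher genes. Txn2 averaged 71.4 ± 2.29 normalised CPM in GMTT, 301 ± 20.5 in GPI and 76.3 ± 4.29 in Sham (SD, n = 3). Txnrd3 averaged 3.93 ± 0.189 in GMTT, 18.5 ± 0.588 in GPI and 2.96 ± 0.696 in Sham. The 5 lower genes were Glrx (-3.37), Sesn2 (-1.82), Glrx5 (-1.69), Txn1 (-1.27) and Srxn1 (-0.87). In GMTT against GPI 9 fell and 4 rose, but 4 fell and 10 rose with library sizes only. Those that fell with TMM scaling included Txn2 and Txnrd3, with the levels given above. Txnip (-1.69), Sesn1 (-1.54) and Txnrd1 (-0.64, turning to 0.46 with library sizes only) fell as well. The 4 that rose were Glrx (3.69), Sesn2 (1.78), Txn1 (1.15) and Glrx5 (0.75). In GMTT against Sham 6 fell, including Glrx5 (-0.95), Sesn1 (-0.72) and Txnip (-0.11, a call lost in 12 alternatives), and 5 were not called. The 3 that rose were Txnrd3 (0.41), Sesn3 (0.39) and Glrx (0.33), and the call of Txnrd3 was lost without Sham library 2 (adjusted p = 0.236) or GMTT library 2 (0.0693).

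The list of superoxide and hydrogen peroxide sources also holds Epx and Mpo, leukocyte peroxidases that use hydrogen peroxide and do not make it. Most of its genes moved in the direction of the leukocyte markers in the contrasts with GPI. In GPI against Sham 10 of 13 fell, among them Epx, the eosinophil peroxidase (-11.83, on 9 reads in GPI), and Rac2 (-6.81) and Cybb (-5.26), both parts of the phagocyte NADPH oxidase. Cybb averaged 336 ± 6.47 normalised CPM in GMTT, 7.08 ± 1.12 in GPI and 274 ± 8.07 in Sham (SD, n = 3). The 3 that rose were Aox1 (3.21), Nox4 (3.05) and Maoa (2.99). In GMTT against GPI 9 rose (10 with library sizes only), including Epx (10.54) and Cybb (5.56), and the 3 that fell were Aox1 (-3.12), Maoa (-2.16) and Nox4 (-1.85). In GMTT against Sham 7 rose, including Nox4 (1.20), Xdh (0.58) and Cybb (0.29), and Epx (-1.29) and Duox1 (-0.85) fell, the call of Duox1 being lost with DESeq2 (adjusted p = 0.0714). The list median was -3.85, 3.92 and 0.29 in these contrasts, beside -0.19, 0.12 and -0.0031 for all genes.

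Genes that load metals or build selenoproteins had 4 of 11 higher and 4 lower in GPI against Sham, but 2 higher and 8 lower with library sizes only. Pstk (2.40), Slc39a14, a manganese and zinc importer (1.36), Atp7a (1.15) and Selenop (0.88) rose, but with library sizes only Selenop was -0.21 and Atp7a was not called (adjusted p = 0.569). Slc25a37, the mitochondrial iron importer of red cell precursors (-6.07), Sephs2 (-1.21), Ccs (-0.99) and Secisbp2 (-0.69) fell. In GMTT against GPI 5 rose with TMM scaling (library sizes only: 10), namely Slc25a37 (5.39), Sephs2 (0.88), Ccs (0.82), Atox1 (0.77) and Secisbp2 (0.27). The 4 that fell were Pstk (-2.10) and, turning to 0.32, 0.46 and 0.75 with library sizes only, Selenop (-0.79), Atp7a (-0.64) and Slc39a14 (-0.35). In GMTT against Sham Slc39a14 (1.01), Atox1 (0.55), Atp7a (0.51) and Pstk (0.30) rose, and Slc25a37 (-0.69), Secisbp2 (-0.42), Sephs2 (-0.33) and Ccs (-0.17) fell. The call of Pstk was lost without Sham library 3 (adjusted p = 0.127), GMTT library 1 (0.0634) or GMTT library 3 (0.0633).

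**Figure D4:**
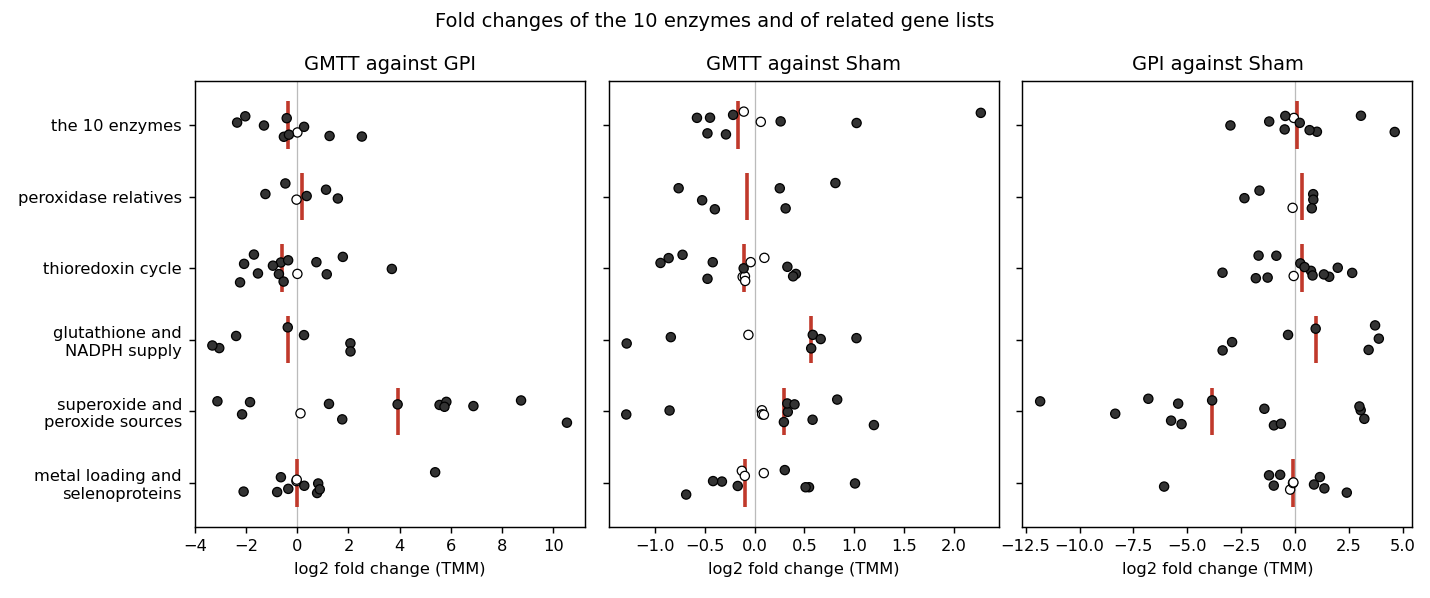
Log2 fold changes (TMM scale) of the 10 enzymes and of 5 related gene lists in GMTT against GPI, GMTT against Sham and GPI against Sham. Each point is a gene, filled where called, and red lines are list medians; the list of superoxide and peroxide sources, which includes Epx and Mpo, has the lowest median in GPI against Sham (-3.85) and the highest in GMTT against GPI (3.92), and signs in the contrasts with GPI turn for part of the genes with library sizes only.

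The genes closest in pattern to each enzyme were found by the largest difference in log2 fold change over the 3 contrasts, among 10913 genes. For Sod2 they were Ncam1 (0.052) and Tshz2 (0.077), and for Sod3 Angptl1 (0.049) and Nrep (0.091). Within 0.2 log2 units lay 4 genes for Sod3 and 30 for Sod2, against 617 for Gpx3 and 478 for Prdx1. For Cat they were Rdm1 (0.025) and Fth1 (0.057), and for Gpx1 Vav2 (0.018) and Eri1 (0.046). For the other members they were Dnaja1 and Thoc7 (Sod1), Pyroxd2 and Zwint (Gpx3), Mrpl14 and Mtmr2 (Gpx4), Tcp1 and Fbxo28 (Prdx1), Rbms1 and Rap1gds1 (Prdx6), and Dolpp1 and Slit2 (Gsr). The likeness rests on 3 group means.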

How the data were processed

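RNA was sequenced from rat femurs in 3 libraries a group, numbered 1 to 3 in the labels. Per the labels' protocols, TRIzol extracts were poly(A)-selected and turned into dUTP stranded libraries, read from both ends. Deposited were read counts and FPKM values for each gene, which the authors placed on build mRatBN 7.2 per the submitters' processing notes. Aligner, counting program and strand setting: not given in the sources used here; overlapping genes and near copies such as Prdx1l1 are therefore uncertain. Recomputed from the counts and lengths, the deposited FPKM used a divisor for each library that averaged 1.30 of its total in GMTT, 0.604 in GPI and 1.32 in Sham, so FPKM carries a scaling between libraries.

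edgeR 4.0.16 in R 4.3.3 fitted the 9 libraries together (robust quasi-likelihood F test, 2-sided) after TMM scaling and the tool's default filter with a minimum count of 10, and p-values were adjusted by Benjamini-Hochberg over 15936 genes. The SE is the log2 fold change over the square root of F. The procedure was tested on simulated counts with known changes. Replicates differed by more than sampling noise (chi-square per degree of freedom 1.94 to 4.88), so none were merged. Shares were compared with the exact permutation test. Deviations of same-numbered libraries correlated by -0.146 to 0.0614, so no pairing by number was seen and none was modelled. With 3 libraries a group this check cannot exclude a small shared effect. The 10 members and the lists (5 of related genes, 12 of markers) were chosen with earlier results of these data known. Named were all members, every tested peroxidase relative, the 2 genes with the smallest p in each contrast from each other list, and Ccs, Txnip, Txnrd1, Gclc and Cybb. Other list genes named, Prdx1l1, the recount of lists with library sizes only and the ratios to oxidative phosphorylation genes were chosen after their values were seen. Genes of like pattern had a mean of at least 5 normalised CPM and a symbol of their own; 2 are named for each member. Ggt5 and Pgd are not analysed here, and 1 further gene of the lists is not reported here. Other settings tried were scaling by median of ratios or library sizes only, DESeq2 1.42.0, no filter, at least 5 CPM in 3 libraries, a replicate block, fits to the 6 libraries of a contrast, limma 3.58.1 on log2(FPKM + 1) and log2(FPKM + 0.1), removal of mitochondrially encoded, muscle and erythroid list genes, and leaving out each library. Figures used matplotlib 3.10.9.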

Additional observations from a re-analysis of the deposited data

How the results depend on the processing

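Counts of called enzymes moved by over 1.5 times with library sizes only, in both contrasts with GPI, and under no other alternative run. With library sizes only they were 2 higher and 7 lower in GPI against Sham and 7 higher and 3 lower in GMTT against GPI, while calls over all genes were 3521 higher and 11210 lower, and 11503 higher and 3016 lower, in place of 6387 higher and 7662 lower, and 7285 higher and 6400 lower. All other alternatives kept a scaling between libraries, and the FPKM divisors (1.30 in GMTT, 0.604 in GPI, 1.32 in Sham) lay near the TMM factors (1.29, 0.602 and 1.28). Those alternatives are therefore not independent checks of the TMM scaling. Signs that turned with library sizes only were, as log2 fold changes in GPI against Sham, Gpx4 -0.079, Prdx1 -0.88, Prdx6 -0.42, Glrx3 -0.65, Gpx7 -0.25, Idh1 -0.14, Prdx3 -0.25, Prdx5 -0.32, Selenop -0.21, Sesn1 -0.28, Txnrd1 -0.35, Txnrd2 -0.85, and in GMTT against GPI, Cat 0.58, Prdx1 0.78, Prdx6 0.69, Atp7a 0.46, Eefsec 1.08, Glrx2 0.75, Glrx3 0.57, Gpx7 1.07, Idh1 0.73, Prdx5 0.64, Selenop 0.32, Sepsecs 1.07, Sesn3 0.15, Slc39a14 0.75, Txnrd1 0.46, Txnrd2 0.38. Values near 0 in GMTT against GPI also changed sign. Sod1 was -0.021 with median-of-ratios scaling, -0.034 with the 5 CPM filter and -0.022 without mitochondrially encoded, muscle and erythroid list genes. Srxn1 was -0.021, -0.034 and -0.022 under these alternatives, -0.0019 with limma on log2(FPKM + 1), with and without the filter, and -0.0026 on log2(FPKM + 0.1). With no low-count filter Gpx7 was 0.0023 and Eefsec 0.011. Cat in GPI against Sham was 0.0054 with median-of-ratios scaling. Leaving out single libraries turned signs in GMTT against GPI for Gpx7 -0.11 to 0.032, Srxn1 -0.094 to 0.10, Duox1 -0.075 to 0.29, Eefsec -0.051 to 0.0090, Sod1 -0.028 to 0.044, Sepsecs -0.12 to 0.0054, and in GMTT against Sham for Aox1 -0.046 to 0.25, Gss -0.13 to 0.016. With the replicate block the enzymes called were 5 higher and 4 lower, 3 higher and 6 lower and 3 higher and 5 lower in the same order of contrasts, GMTT against Sham last, as without it, and calls over all genes were 6342 higher and 7618 lower, 7222 higher and 6352 lower, and 4525 higher and 4290 lower; 3 genes of the related lists (Gss, Ccs and Txnip) lost a call. As shares of counts, which ignore gene length, means in GMTT, GPI and Sham were 37.4%, 12.6%, 63.0% for Sod1, 59.5%, 82.1%, 36.2% for Sod2, 3.11%, 5.34%, 0.801% for Sod3, 83.3%, 31.6%, 85.3% for Gpx1, 5.87%, 10.6%, 5.04% for Gpx3, 10.8%, 57.8%, 9.68% for Gpx4 and 38.8%, 40.1%, 32.9% for Prdx6. Beyond the scaling, filter or length that defines each alternative, the cause was not tested. Among the 10 enzymes, depth was most limiting for Sod3 in Sham, with 135 reads. Some genes of the related lists rested on fewer, such as Epx (9 reads in GPI), Duox1 (24 in GPI) and Nox4 (27 in Sham).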

Other observations

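Marker genes of bone and vessels took other parts of the libraries. The 10 osteoblast and osteocyte genes took 0.971% ± 0.0460 in GMTT, 0.337% ± 0.00966 in GPI and 0.713% ± 0.0268 in Sham of counts (SD, n = 3), and by edgeR's test 9 of 10 fell in GPI against Sham and 10 rose in GMTT against GPI. Although their summed share was higher in GMTT than in Sham, gene by gene 2 rose and 6 fell in GMTT against Sham. The median log2 fold change there was -0.26, and library sizes only gave the same counts. The 8 endothelial genes took 0.0591% ± 0.00273 in GMTT, 0.0546% ± 0.00108 in GPI and 0.0458% ± 0.00121 in Sham, and 7 of 8 rose in GPI against Sham and 7 fell in GMTT against GPI. Of the 9 chondrocyte genes tested, 6 rose and 2 fell in GPI against Sham, 2 rose and 6 fell in GMTT against GPI, and 3 rose and 1 fell in GMTT against Sham. With library sizes only, 10 osteoblast and osteocyte genes fell and 10 rose in the contrasts with GPI, 6 endothelial genes rose and 5 fell, and the chondrocyte counts turned, to 1 higher and 5 lower in GPI against Sham and 5 higher and 2 lower in GMTT against GPI.

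The spread between libraries was small for most of the 10 enzymes. The coefficient of variation of normalised CPM had a median of 3.67% in GMTT, 5.79% in GPI and 3.91% in Sham, and the highest was 23.0%, for Sod3 in Sham. Within GPI, library 2 was the highest of the 3 for 7 of the 10 enzymes (Cat, Sod1, Sod3, Gpx1, Gpx3, Gpx4 and Prdx6), and within Sham, library 3 was the highest for 6. The same count over all genes was not made, so neither count can be read as a trait of the enzymes.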
